A study of Mus with 6 samples.

Results

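The genes described here encode the 6 subunits of the MCM helicase, Mcm2 to Mcm7, and its cofactor Cdc45. They were found by their Ensembl identifiers and make up 7 of the 55421 genes counted in each library. All 7 passed the low-count filter and were among the 16810 genes tested. In lens epithelial cells (LECs) left behind after removal of the lens fiber cells, Mcm4 mRNA was about 4 times as abundant at 6 h post cataract surgery (PCS) as at 0 h PCS, while no other gene of the group passed the test.

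The MCM proteins form a ring of Mcm2 to Mcm7 that is loaded onto DNA at replication origins in G1 phase, a step called licensing. The origin recognition complex, Cdc6 and Cdt1 carry out the loading. At the start of S phase, Cdc45 and the GINS complex join each ring, which then unwinds DNA ahead of the polymerases. The genes for these proteins are known targets of E2F transcription factors, and their products mark cells that are cycling or able to cycle. In the adult lens, most LECs are quiescent, and dividing cells lie mainly in a band near the lens equator.

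The RNAseq compared wild type C57BL/6 mice, given an age of 2 months in the sample labels and an older range, with both sexes, in the methods of the paper. Both groups underwent the same operation, in which the fiber cell mass was taken out and the capsule with its LECs stayed in the eye. Capsules were taken at once (0 h PCS) or 6 h later (6 h PCS), with 3 libraries per time point and 5 pooled capsules per library. By the deposited design text, each mouse had its second eye operated 6 h after the first, and both were harvested together, so a 0 h capsule can come from an animal whose other eye had been injured 6 h before. Which pools share mice is not given, and a pool cannot show differences between animals. The p-values rest on 3 pools against 3 and set the change between time points against the spread between pools. The test took the pools as independent, although pools of the 2 time points may share mice. The authors deposited raw read pairs counted per gene, and each 0 h library held 20253239 to 24701039 of them on genes, and each 6 h library 18039974 to 22496116. Levels below are CPM, the read pairs a gene would have in a library of 1000000, on library sizes corrected with TMM factors, with the SD over 3 libraries. Because no exon length was at hand for 6 of the 7 genes, CPM values are compared between time points and not between genes. Lens epithelium markers were present at both times, with Pax6 at 573 ± 90.3 and 402 ± 104 CPM and Foxe3 at 86.9 ± 10.2 and 106 ± 6.16 CPM for 0 h and 6 h (SD, n = 3).

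Mcm4 encodes a subunit that lies between Mcm6 and Mcm7 in the ring and takes part in its ATPase. The gene (ENSMUSG00000022673) covers 15623897 to 15637400 on chromosome 16 of GRCm38. At 0 h PCS the 3 libraries had 13.9, 8.49 and 12.2 CPM, from 324, 233 and 283 read pairs. At 6 h PCS they had 39.7, 52.8 and 46.4 CPM, from 591, 1173 and 771 read pairs. Every library at 6 h PCS therefore lay far above every library at 0 h PCS, by more than the spread within either group. The mean went from 11.6 ± 2.79 to 46.3 ± 6.54 CPM (SD, n = 3), a 4.01-fold increase with a 95% interval of 2.88 to 5.60. On the log2 scale the change was 2.00 (standard error 0.215), and the edgeR quasi-likelihood F-test gave a Benjamini-Hochberg adjusted p of 0.000619. A differentially expressed gene (DEG) here meets 2 limits, an adjusted p no higher than 0.05 and a change of more than 2-fold. Mcm4 remained a DEG in all 6 fits that left out a library, with log2 fold changes from 1.82 to 2.16 and adjusted p up to 0.00425 (edgeR). Of all genes tested, 3.58% had a larger log2 fold change. In these pooled capsules a higher level in each cell and a larger share of cells that express the gene cannot be told apart. With its exon length of 3589 bases, and scaled on total gene counts, Mcm4 was at 3.59 ± 0.846 FPKM at 0 h PCS and 11.7 ± 2.72 FPKM at 6 h PCS (SD, n = 3), a difference of 8.08 FPKM.

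**Figure D1:**
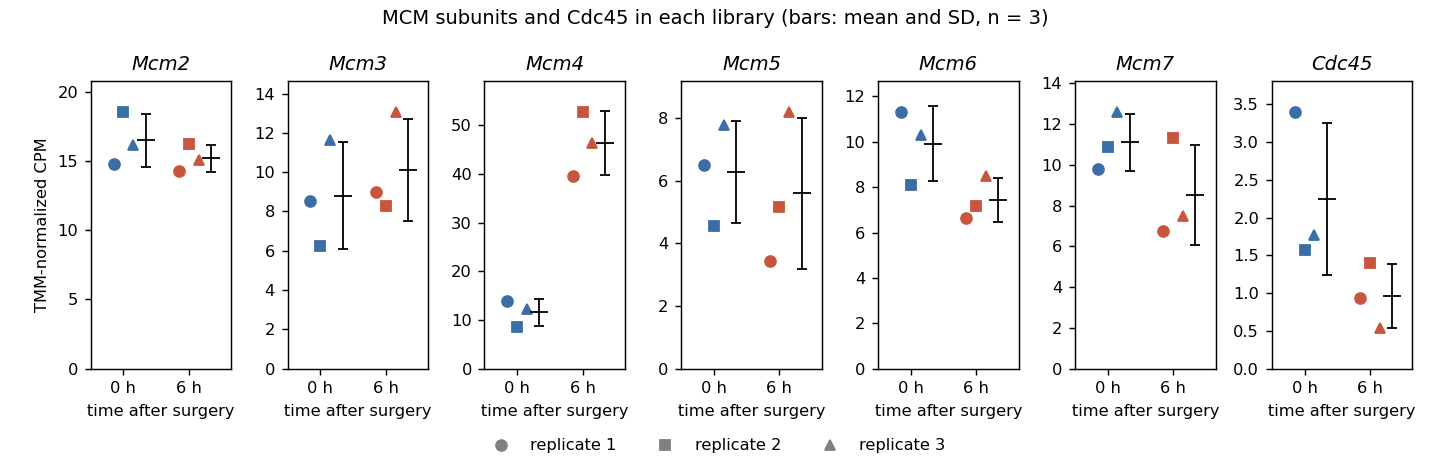
TMM-normalized CPM (vertical axes, linear and from 0, scaled separately for each gene) of the 7 genes at 0 h and 6 h PCS. Symbols stand for the 3 libraries of a time point and bars for the mean and SD. Mcm4 sits between 8.49 and 13.9 CPM at 0 h and between 39.7 and 52.8 CPM at 6 h PCS, Cdc45 lies lower at 6 h without overlap, and in the other 5 genes the time points overlap.

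The other subunits of the ring did not follow Mcm4. Mcm2, whose product also binds histones at the fork (chromosome 6, 88883474 to 88898780), had 14.8, 18.6 and 16.2 CPM at 0 h and 14.3, 16.2 and 15.1 CPM at 6 h PCS. These values overlapped, and the log2 fold change was -0.12 (95% interval -0.53 to 0.29, adjusted p = 0.749, edgeR). Mcm2 had the narrowest interval of the 7 genes, and its upper bound was a 1.22-fold increase.

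Mcm6, which stands next to Mcm2 in the ring (chromosome 1, 128331575 to 128359705), had 11.3, 8.09 and 10.3 CPM at 0 h and 6.65, 7.15 and 8.49 CPM at 6 h PCS. The highest library at 6 h PCS exceeded the lowest at 0 h PCS, and the log2 fold change was -0.41 (95% interval -0.96 to 0.13, adjusted p = 0.351, edgeR). Mcm7, which pairs with Mcm4 in the ring (chromosome 5, 138164583 to 138172111), had 9.81, 10.9 and 12.6 CPM at 0 h and 6.78, 11.3 and 7.47 CPM at 6 h PCS. Its 6 h libraries were spread more widely than those at 0 h PCS, since replicate 2 stayed within the 0 h range, and the log2 fold change was -0.38 (95% interval -0.96 to 0.21, adjusted p = 0.43, edgeR).

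Mcm3 and Mcm5 form the remaining pair of subunits, and each varied between pools more than between time points. Mcm3 (chromosome 1, 20802966 to 20820312) had 8.52, 6.23 and 11.7 CPM at 0 h and 8.99, 8.27 and 13.1 CPM at 6 h PCS, a log2 fold change of 0.20 (95% interval -0.46 to 0.86, adjusted p = 0.735, edgeR). With libraries scaled on their totals alone, that sign turned, to -0.13. Mcm5 (chromosome 8, 75109468 to 75128439) had 6.50, 4.55 and 7.77 CPM at 0 h and 3.42, 5.17 and 8.19 CPM at 6 h PCS, a log2 fold change of -0.16 (95% interval -0.99 to 0.66, adjusted p = 0.834, edgeR). In both genes replicate 3 was the highest library at each time point. For Mcm5 the SD at 6 h PCS was 43.1% of the mean, whereas counting error alone would give 9.97%. The source of this spread was not tested.

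**Figure D2:**
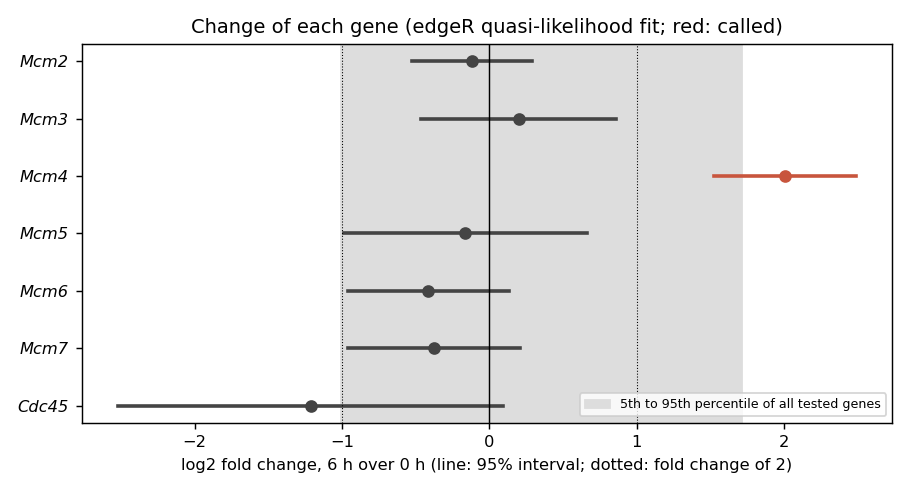
Log2 fold change of each gene at 6 h over 0 h PCS (points, horizontal axis) with its 95% interval from the edgeR fit (lines). The grey band spans the 5th to the 95th percentile of all 16810 genes tested (-1.01 to 1.71), dotted lines mark a fold change of 2, and red marks the DEG. The interval of Mcm4 (1.52 to 2.48) lies above those of all other genes, of which the highest upper bound is 0.86 in Mcm3.

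Cdc45 joins the loaded ring when it is turned into the active helicase. Its gene (ENSMUSG00000000028, chromosome 16, 18780447 to 18811972) gave few reads, with 79, 43 and 41 read pairs at 0 h PCS and 14, 31 and 9 at 6 h PCS. These are 3.40, 1.57 and 1.77 CPM against 0.94, 1.39 and 0.54 CPM, so all 3 libraries at 6 h PCS were below all 3 at 0 h PCS. The mean was 2.25 ± 1.00 CPM at 0 h and 0.959 ± 0.426 CPM at 6 h PCS (SD, n = 3). The log2 fold change of -1.21 (standard error 0.585) did not pass, with an adjusted p of 0.252 (edgeR) and a 95% interval from -2.52 to 0.10. Counting error alone would give a coefficient of variation of 23.6% at 6 h PCS, the largest of the 7 genes, and the observed value was 44.5%. Without 0 h replicate 1, the library with the most Cdc45 reads, the log2 fold change was -0.79, and without 6 h replicate 2 it was -1.62.

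Over the group, 1 of the 7 genes was an upregulated DEG, where 4.53% of all tested genes were, and 0 were downregulated DEGs, where 0.821% were. With the limit on adjusted p alone, the counts stayed at 1 and 0, against 6.31% and 2.02% of all genes. No gene of the 7 had a negative change with an unadjusted p under 0.05, and DESeq2 and the exact test of edgeR also called 0 lower. Groups did not overlap in 1 gene that was higher, Mcm4, and in 1 that was lower, Cdc45, while 15.3% of all tested genes were higher without overlap and 15.3% lower. The 7 log2 fold changes had a median of -0.16, beside a median of -0.0030 over all tested genes. Without 1 library, the median of the 7 ran from -0.35 (without 0 h replicate 2) to -0.079 (without 6 h replicate 1). The direction of small changes depended on how libraries were scaled. On library totals alone the median of all genes moved to -0.32 and that of the 7 to -0.47, and the DEGs went from 762 higher and 138 lower to 572 higher and 627 lower. The number of lower DEGs also rested on single libraries, with 43 without 0 h replicate 1 and 53 without 0 h replicate 3. On library totals, Mcm4 still rose, with a log2 fold change of 1.70 (adjusted p = 0.00187, edgeR).

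Ratios within a library do not depend on scaling, and they show how the make-up of the subunit mRNAs shifted. Mcm4 contributed 21.5%, 14.9% and 17.3% of the summed counts of Mcm2 to Mcm7 at 0 h PCS and 49.7%, 52.3% and 47.0% at 6 h PCS. Mcm2 gave the most read pairs of the 6 subunits in every library at 0 h PCS, and Mcm4 did so in every library at 6 h PCS, without a correction for gene length. Read pairs of Mcm4 relative to Mcm6 gave log2 ratios of 0.30, 0.070 and 0.24 at 0 h PCS and 2.58, 2.88 and 2.45 at 6 h PCS. Relative to Mcm7, the ratios were 0.51, -0.36 and -0.045 at 0 h PCS and 2.55, 2.22 and 2.64 at 6 h PCS. In the ratios of Mcm4 to each of the other 6 genes, the time points did not overlap. These ratios were formed after the level of Mcm4 was seen and are given as a description, with no test.

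The summed level of the other 5 subunits was 52.6 ± 5.31 CPM at 0 h and 46.9 ± 6.18 CPM at 6 h PCS (SD, n = 3). The time points overlapped, with p = 0.40 (two-sided exact permutation test). Mcm4 was left out after its level was seen. With 3 libraries against 3 this p cannot fall below 0.10, so the test cannot show that the sum was unchanged. Mcm2 made up 31.7 ± 5.85% of the counts of these 5 at 0 h PCS and 32.7 ± 3.52% at 6 h PCS (SD, n = 3), and the difference was within the replicate error. Shares of Mcm3, Mcm5 and Mcm7 among the 5 also overlapped between time points, with means of 16.5%, 11.8% and 21.1% for 0 h and 21.5%, 11.6% and 18.2% for 6 h. The share of Mcm6 was 22.2%, 16.7% and 17.6% for 0 h and 16.6%, 14.8% and 16.2% for 6 h, lower without overlap (p = 0.10, two-sided exact permutation test, the smallest value that 3 libraries against 3 allow). Scaled on library totals alone, the sum of the 5 was 58.7 ± 7.20 CPM for 0 h and 42.2 ± 7.88 CPM for 6 h (SD, n = 3), without overlap (p = 0.10, two-sided exact permutation test).

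**Figure D3:**
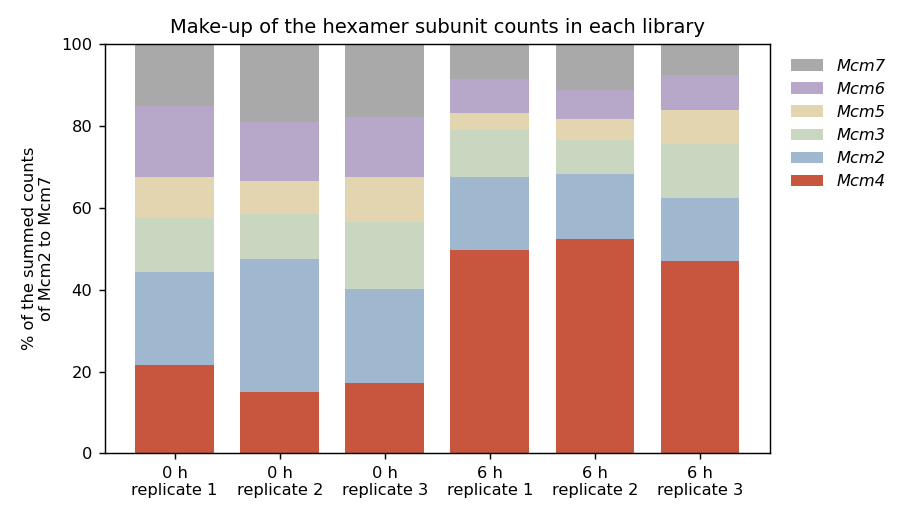
Percentage of the summed read pairs of Mcm2 to Mcm7 that each subunit contributed (vertical axis) in each of the 6 libraries (bars). Mcm4, in red, takes 14.9% to 21.5% at 0 h and 47.0% to 52.3% at 6 h PCS. Counts are not corrected for gene length, so the heights within a bar do not give the relative abundance of the mRNAs.

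The wider replication pathway was described with gene lists, of which only part could be named in these data and the names at hand lean towards changed genes. Among all named and tested genes, 11.6% were upregulated and 2.1% downregulated DEGs, and the median log2 fold change was 0.19. In the list for origin recognition and loading, 5 of 12 genes could be named and tested, 1 was a downregulated DEG and 0 were upregulated. This was Orc5, a subunit of the origin recognition complex, which went from 8.24 ± 0.435 to 3.44 ± 1.24 CPM (SD, n = 3), and the log2 fold change was -1.27 (adjusted p = 0.0399, edgeR). It was a DEG in 1 of 6 fits without a library, the fit without 6 h replicate 1, and its adjusted p reached 0.127 in the others. Orc3 of the same complex had a log2 fold change of -0.61 (adjusted p = 0.0778, edgeR). Cdt1, which delivers the MCM ring to origins, was at 3.96 ± 0.875 and 5.44 ± 2.21 CPM (SD, n = 3), with a log2 fold change of 0.46 (adjusted p = 0.514, edgeR). The MCM relatives Mcm8 and Mcm9, which act in DNA repair, had log2 fold changes of -0.22 and -0.22, and neither was a DEG.

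Of 16 genes for helicase activation, 6 could be named and tested, and 0 were DEGs. With DESeq2 or the exact test of edgeR there was 1, Gins3. Its product is a subunit of the GINS complex that joins Cdc45 on the ring. Gins3 had 49, 53 and 36 read pairs at 0 h PCS and 2, 13 and 3 at 6 h PCS, without overlap. Its log2 fold change was -2.56 (standard error 0.737, adjusted p = 0.0628, edgeR), and the levels were 1.86 ± 0.283 and, from few reads, 0.300 ± 0.248 CPM (SD, n = 3). Without 1 library, this log2 fold change ran from -3.53 to -2.24. Gins3 was also a DEG on library totals alone and in 1 of 6 fits without a library, that without 6 h replicate 2. Gins4 of the same complex also lay lower without overlap, at 9.08 ± 0.991 and 5.33 ± 0.705 CPM (SD, n = 3), and the log2 fold change was -0.77 (adjusted p = 0.0984, edgeR). Mcm10, which helps to start the helicase, had a log2 fold change of 0.54 (adjusted p = 0.367, edgeR).

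Of 26 genes of the replication fork, 4 could be named and tested, and 1 was a DEG. Rfc3, a subunit of the clamp loader that places PCNA on DNA, fell from 5.01 ± 1.79 to 1.39 ± 0.248 CPM (SD, n = 3), and the log2 fold change was -1.85 (adjusted p = 0.0249, edgeR). It was a DEG in 2 of 6 fits without a library, those without 0 h replicate 1 or 6 h replicate 1. Rpa1, which coats single-stranded DNA, was at 51.9 ± 6.40 and 48.4 ± 5.86 CPM (SD, n = 3), and the difference was within the replicate error. The small polymerase epsilon subunits Pole3 and Pole4 had log2 fold changes of -0.30 and 0.14 and were not DEGs. The thymidine kinase gene Tk1 was the 1 gene of 6 for nucleotide supply that could be tested, and its log2 fold change was -0.14 (adjusted p = 0.906, edgeR).

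In the list for G1/S control, 11 of 32 genes could be named and tested, 2 were upregulated DEGs and 1 was downregulated. E2f8 encodes an E2F factor known as a repressor of replication genes and had 15, 20 and 43 read pairs at 0 h PCS against 88, 114 and 194 at 6 h PCS. It rose from 1.08 ± 0.676 to 7.57 ± 3.58 CPM (SD, n = 3), and the log2 fold change was 2.81 (adjusted p = 0.0102, edgeR). Cdkn1a, which encodes the cyclin-dependent kinase inhibitor p21, rose from 5.28 ± 1.26 to 31.4 ± 17.8 CPM (SD, n = 3), and the log2 fold change was 2.57 (adjusted p = 0.00873, edgeR). Without 0 h replicate 1, neither E2f8 (adjusted p = 0.0543) nor Cdkn1a (adjusted p = 0.052) was a DEG in the edgeR fit. Cdc25a, the phosphatase that activates Cdk2, fell from 6.46 ± 0.275 to 2.68 ± 0.34 CPM (SD, n = 3), and the log2 fold change was -1.27 (adjusted p = 0.031, edgeR), and it was a DEG in 0 of 6 fits without a library, where its adjusted p ran from 0.0506 to 0.108. Myc, a transcription factor that drives growth and cell cycle entry, had 35.02, 15.7 and 9.58 CPM at 0 h and 85.1, 59.9 and 131.6 CPM at 6 h PCS, without overlap. Its log2 fold change of 2.20 did not pass (adjusted p = 0.0834, edgeR), although DESeq2 and the exact test of edgeR called it. Myc was also a DEG in the edgeR fit without 0 h replicate 1 (adjusted p = 0.00974). Its log2 fold change ran from 1.85 to 2.86 without 1 library. Ccne1, whose cyclin E drives entry into S phase, was at 1.47 ± 0.306 and 0.843 ± 0.366 CPM (SD, n = 3) and was not a DEG (adjusted p = 0.498, edgeR). Tfdp2, a partner of E2F factors, and Cdkn1b, which encodes the inhibitor p27, passed the limit on adjusted p but not on fold, with log2 fold changes of -0.90 and -0.72. In the edgeR fits without 1 library, the adjusted p of Cdkn1b reached 0.0751 and that of Tfdp2 0.035.

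Genes of G2/M and proliferation were not called. Of 20 listed, 6 could be named and tested, 0 were DEGs, and the median log2 fold change was -0.51. Top2a, a topoisomerase of dividing cells, was at 16.1 ± 3.84 CPM at 0 h and 10.7 ± 1.18 CPM at 6 h (SD, n = 3), and the log2 fold change was -0.59 (adjusted p = 0.151, edgeR). Prc1, which organises the spindle midzone, had a log2 fold change of -0.85 (adjusted p = 0.239, edgeR). Bub1b, of the spindle checkpoint, had the opposite sign at 0.50 (adjusted p = 0.392, edgeR). Replication-dependent histone genes, whose mRNA lacks a poly(A) tail and is made mostly in S phase, could be measured because the libraries were ribodepleted total RNA. Only those with a symbol at hand were listed, so the 17 that were named and tested need not be the whole family. Of these 17, 15 had a negative log2 fold change. Their median was -0.81, beside 0.19 over all named and tested genes. Among them H2bc15 was the 1 downregulated DEG, with a log2 fold change of -1.40 (adjusted p = 0.0313, edgeR). It was a DEG in 2 of 6 fits without a library, those without 0 h replicate 3 or 6 h replicate 3. H1f4 passed the limit on adjusted p with a log2 fold change of -0.83, while H2bc3 (-1.32) and H2bc4 (-0.66) did not pass. In the edgeR fits without 1 library, the adjusted p of H1f4 ran from 0.0201 to 0.0844. Copies of histone genes are nearly alike, and read pairs that fit several copies may not have been counted, so these values are uncertain.

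**Figure D4:**
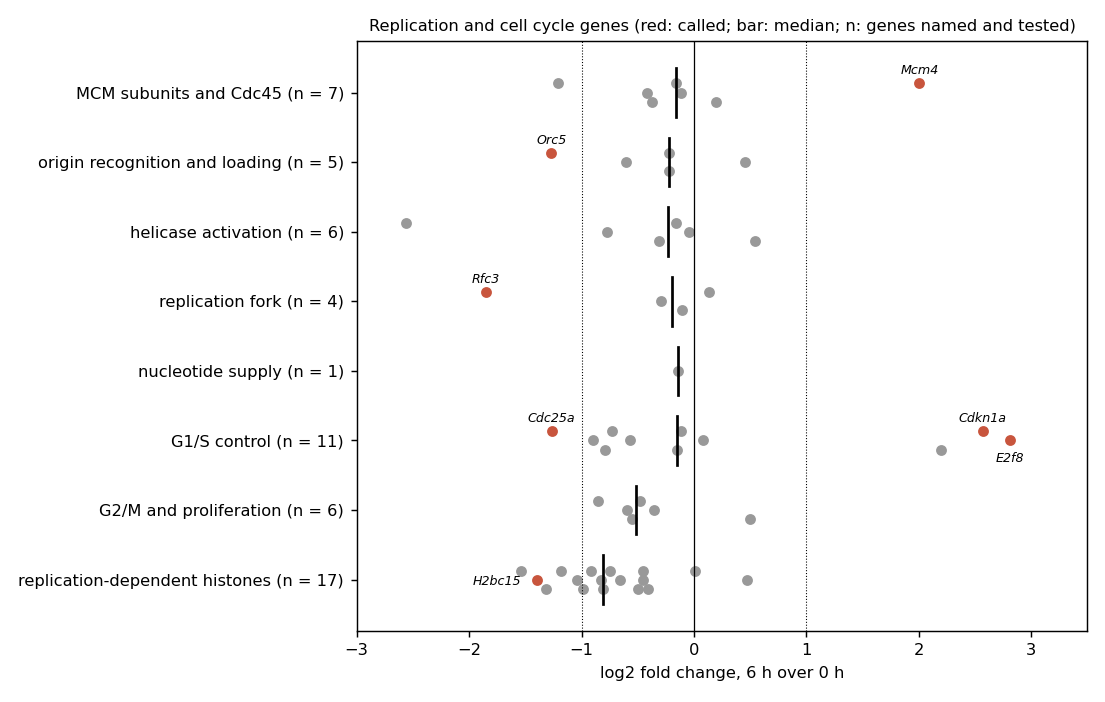
Log2 fold changes at 6 h over 0 h PCS (horizontal axis) of the MCM genes with Cdc45 and of the pathway genes that could be named and tested. Points are genes, red points are DEGs, black bars are the medians of each list, and dotted lines mark a fold change of 2. Mcm4 is the 1 DEG in its group, at 2.00, and the medians of the lists lie between -0.81 and -0.14.

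Markers of some other cell types moved with the time points in these pools, and their part in the result for Mcm4 was not tested. None of the marker genes named below was at 0 in all libraries. Both corneal epithelium markers at hand, Krt12 and Krt5, were higher without overlap, and their summed level was 0.765 to 14.7 CPM at 0 h and 69.2 to 104 CPM at 6 h PCS, although 0 of 2 were DEGs. All 3 erythrocyte markers were upregulated DEGs, with a summed level of 4.88 to 10.5 CPM and 43.0 to 80.9 CPM. Of 14 leukocyte markers listed, 8 could be named and tested, and they overlapped in sum, at 14.9 to 29.6 CPM and 20.3 to 39.5 CPM. Of these 8, 6 had a positive log2 fold change and 2 a negative one, with a median of 0.68. Among them Cd68 was the 1 upregulated DEG. The 4 pigment cell markers summed to 51.4 to 208.8 CPM at 0 h PCS and 77.4 to 1965 CPM at 6 h. Dct, which gave the most read pairs of them without a correction for gene length, had 50.3, 273 and 1164 CPM in the 6 h libraries. In the same libraries Krt12 had 56.1, 65.8 and 44.2 CPM and Mcm4 had 39.7, 52.8 and 46.4 CPM. Of the 3 endothelium markers, 0 were DEGs, and their sums were 3.75 to 25.9 and 19.3 to 35.8 CPM. Pecam1 (log2 fold change 1.98) and Cdh5 (3.33) were higher at 6 h without overlap, while Kdr, which gave most of the sum, overlapped. The 4 stroma markers summed to 292 to 330.1 and 213.1 to 317.1 CPM, and 0 were DEGs. Most of this sum at 0 h PCS came from Pdgfra, with 205.5, 182.3 and 247.8 CPM, so it rests largely on 1 gene. Pdgfra passed the limit on adjusted p with a log2 fold change of -0.73 (adjusted p = 0.0179, edgeR), Dcn (-1.52) was lower without overlap, and Col1a1 (2.54) overlapped. The 6 lens epithelium markers summed to 1700 to 1925 and 1510 to 1772 CPM, with members moving in both directions. Epha2, an ephrin receptor, was an upregulated DEG with a log2 fold change of 1.21 (adjusted p = 0.0134, edgeR). The transcription factor genes Sox2 (-0.70, adjusted p = 0.0151) and Prox1 (-0.75, adjusted p = 0.0119) passed the limit on adjusted p but not on fold in the edgeR fit.

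By the rule used for genes alike in pattern, the 7 genes were averaged as z-scores and set against 6049 other named genes over the 6 libraries. The closest were Tnfrsf14 (Pearson r = 0.99), Smarcd3 (r = 0.979), Anapc1 (r = 0.976), Ing4 (r = 0.969) and 0610012G03Rik (r = 0.968), followed by Gm19040, Man2a1, Chst15, Tars and Col8a2. None of the 10 was a DEG, and their log2 fold changes ran from -0.90 in Ing4 to -0.086 in Chst15. These r values describe 6 libraries in 2 groups that share depth and scaling, and they carry no test.

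The surroundings of the genes bear on what could be counted. In the RefSeq annotation, which gives no strand in the form used here, the upper end of Mcm4 lies 43 bases before Prkdc, the gene of the DNA-dependent protein kinase, which was not analysed here. Mcm2, Mcm3, Mcm4, Mcm5 and Mcm6 overlap no other gene. Mcm7 overlaps Ap4m1 and holds the miRNA genes Mir25, Mir93 and Mir106b, which were not analysed here. Cdc45 overlaps Ufd1 and Gm52240. The union mode of the counting leaves out read pairs that fall on more than 1 gene, and its strand setting is not given in the sources used here, so levels of Mcm7 and Cdc45 are less certain. Ap4m1, looked up for its overlap, was at 11.8 ± 1.91 CPM at 0 h and 5.42 ± 1.58 CPM at 6 h PCS (SD, n = 3), and Ufd1 at 30.1 ± 1.45 and 17.5 ± 3.13 CPM (SD, n = 3). Their log2 fold changes were -1.12 (adjusted p = 0.0376) and -0.78 (adjusted p = 0.0269) in the edgeR fit. Ap4m1 was a DEG in 1 of 6 fits without a library, that without 6 h replicate 1.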

How the data were processed

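RNAseq was analysed for 6 libraries of wild type LECs, 3 at 0 h and 3 at 6 h PCS. The authors aligned read pairs to GRCm38 with Hisat2 and counted them on Ensembl genes with the union mode of HTSeq, and the deposited files hold these raw counts, which were used without the 5 HTSeq summary entries. Genes took 33.6% to 41.3% of the read pairs per file. Counts were fitted with edgeR 4.0.16 (R 4.3.3): the filter on low counts by group, TMM factors (0.827 to 1.15), robust dispersions and the quasi-likelihood F-test in its earlier form, with Benjamini-Hochberg adjustment over 16810 genes. Standard errors are the log2 fold change divided by the root of F, and 95% intervals use the moderated degrees of freedom. The fit was also run on simulated data with known changes, and it missed part of them, so a gene that is not a DEG may still have changed. Single values were compared by exact permutation in Python 3.11.15 with scipy 1.17.1. Counting errors treat read pairs as independent although the libraries carry no molecular identifiers. The 95% intervals instead use the dispersions estimated between libraries.

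The genes and lists were chosen with earlier results of these data known. Members are the rows with the 7 given identifiers. The text names these 7, a list of landmark genes, in each other list the DEGs and up to 3 more genes with the lowest adjusted p, and the 10 genes most alike in pattern (mean of at least 1 CPM, prior count 2 on the log scale). Symbols came from supplementary tables and name 6377 of the tested genes, positions from RefSeq for GRCm38.p6. The deposited counts give no length, so FPKM was computed for Mcm4 alone. Neighbours by start site and promoter motifs were not analysed here, since strand and sequence were not at hand. Alternatives were library size scaling, DESeq2 size factors, DESeq2 1.42.0, the exact test, the edgeR 4 form of the test, other filters, a replicate block and leaving out each library.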

Additional observations from a re-analysis of the deposited data

How the results depend on the processing

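Mcm4 was a DEG under all 14 alternatives to the fit, and none of the other 6 genes was a DEG under any alternative that tested it. Cdc45 was not tested where at least 10 counts in every library were required. Signs turned for Mcm3 with library size scaling (log2 fold change -0.13), and without 1 library its values ran from -0.028 to 0.45. For Mcm5 these ran from -0.54 to 0.086, with a positive sign without 0 h replicate 3 (0.016) or 6 h replicate 1 (0.086). The median of the 7 genes was -0.47 with library size scaling. DEGs over all genes numbered 900, and 553 to 877 without 1 library, fewest without 0 h replicate 1. Of the 8 landmark genes that were named and tested, of 20 listed, 1 was a DEG (11.6% of all named genes were upregulated DEGs). There were 3 with library size scaling, DESeq2 or the exact test, 2 with the edgeR 4 form or no low-count filter, and 1 to 2 without a library. Helicase activation had 0 DEGs, against 2 with library size scaling, 1 each with DESeq2, the exact test, the edgeR 4 form and no filter, and 0 to 1 without a library. Origin loading and the replication fork had 1 each, and 0 to 1 without a library. G1/S control had 3, against 5 with library size scaling and 1 to 2 without a library, the lowest without 0 h replicate 1. The causes were not tested.

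Deviations from the group means correlated at r = 0.00365, 0.223 and 0.139 between libraries with the same number. Between libraries with different numbers, r ran from -0.191 to 0.0228. These values do not settle whether the numbers are pairs. The main fit was unpaired because which pools share mice is not given. With the replicate block there were 1050 DEGs, and of the 7 genes still 1 was a DEG. Other exon lengths were not run. Counts were lowest among the 7 genes for Cdc45, with 54 read pairs in all at 6 h PCS.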

Other observations

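Mcm4 was compared by itself with the 6049 other named genes, a choice made after its values were seen. Over the 6 libraries its pattern was closest to those of Bcl10 (Pearson r = 0.998), Hbegf (r = 0.997), Map3k8 (r = 0.997), Dusp10 (r = 0.996) and Noct (r = 0.995), which were all upregulated DEGs with log2 fold changes of 1.05, 2.25, 1.72, 2.63 and 2.88. Bcl10 and Map3k8 act in NF-kB and MAPK signaling, Hbegf encodes a ligand of the EGF receptor, and Dusp10 encodes a MAPK phosphatase. Since the libraries fall into 2 groups, any gene that rose evenly at 6 h PCS scores high on this measure, and no test was made.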
